A study of Mus musculus with 6 samples.

Results

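The 44 enzymes described here degrade amino acids in the liver. They cover the breakdown of tyrosine, tryptophan, serine, histidine, glycine, methionine, proline, lysine and the branched-chain amino acids, the one-carbon steps that join them, 3 aminotransferases and the indolamine methyltransferase Inmt. The genes were chosen by symbol, with earlier results of these data known. All 44 were found among the 54532 genes of the count table and passed the filter on low counts. Their messenger RNA was measured by bulk RNA sequencing of whole liver from 6 C57BL/6J/Rj mice, 3 per group, with 1 library per mouse. The knockout mice were LysMcre/+ Cd44flox/flox, so that Cre expressed from the lysozyme locus deletes the hyaluronan receptor gene Cd44 in myeloid cells. The controls were LysM+/+ Cd44flox/flox littermates, which carry the same floxed alleles without Cre. Both groups drank a Lieber-DeCarli diet with 6% ethanol by volume for 10 days, were gavaged with 5 g of ethanol per kg on day 11 and were killed 9 hours later. Neither ethanol-free livers nor livers with Cre but intact Cd44 were analysed here, so Cre and the disrupted Lyz2 allele cannot be told apart from the loss of Cd44. Age, sex and any pooling of mice were not stated. The comparison asks how expression in the ethanol-exposed liver differs when myeloid cells lack Cd44. The enzymes serve a function of the hepatocytes, which the Cre driver is not designed to target. Only messenger RNA of whole liver was measured, so enzyme activity and the cells that held each transcript are not known.

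Hepatocytes take up amino acids from portal blood and dismantle them in steps specific to each side chain. The first enzyme of a route often sets its rate: tryptophan dioxygenase, tyrosine aminotransferase, serine dehydratase and histidine ammonia-lyase are classical examples, induced by glucocorticoids, glucagon or a protein-rich meal. The carbon ends in glucose, ketone bodies or the citric acid cycle, and the nitrogen goes to the urea cycle. Methionine enters through S-adenosylmethionine, the methyl donor of the cell, and the homocysteine left over is either remethylated from betaine or passed on to cysteine. Ethanol metabolism is known to disturb this methionine cycle in liver.

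Library totals ran from 21521174 to 24042917 counts in the knockout livers and from 18428224 to 23126828 counts in the control livers. Levels are library-scaled counts (CPM) after trimmed-mean (TMM) normalization, and each log2 fold change sets knockout over control. Passing means an adjusted p below 0.05 across the 14758 genes tested. Cd44 itself stood at 2.35 ± 0.579 CPM in knockout livers and 31.3 ± 4.35 CPM in control livers (SD, n = 3 each). Lyz2, at which Cre is inserted, averaged 48.3 ± 16 CPM in knockout livers and 216 ± 20 CPM in control livers. Of 12 hepatocyte markers 4 rose, 0 fell and 8 did not pass, with log2 values from −0.13 (Apoa1) to 1.22 (Ttr). Their summed level was 117000 to 156900 CPM in knockouts and 91020 to 107900 CPM in controls. Most of this sum is albumin (Alb), at 72352 to 96513 CPM in knockouts and 52693 to 60300 CPM in controls. Alb lay higher in every knockout liver but did not pass (adjusted p = 0.131), so the sum does not show a rise shared by all markers. Of 15 myeloid markers 13 fell and 0 rose, with summed levels of 288 to 550 CPM in knockouts and 965 to 1060 CPM in controls. These 13 include Lyz2, which the Cre insertion itself disrupts in the knockouts, and its counts are part of both sums. Of 8 stellate cell markers 4 fell and 0 rose, and of 8 endothelial and 5 cholangiocyte markers 0 passed. None of the markers of these 5 cell types was at 0 in all livers. The share of these shifts in the enzyme levels was not tested. In bulk tissue, the level of a gene depends both on its RNA per hepatocyte and on the share of hepatocyte RNA in the sample. The parts of each in the differences below were not separated for any enzyme.

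Most of these enzymes were more abundant in livers of the knockout mice. Of the 44 genes, 27 rose and 1 fell, and 16 did not pass the test. Among all genes tested 11.9% rose and 13.1% fell (25% in either direction). Since the enzymes were chosen with earlier results of these data known, setting them beside all genes is a description and not an independent test. Among the 6498 tested genes at least as abundant as the lowest of the enzymes (Afmid, 18.9 CPM over all livers), 16.9% rose and 9.73% fell. The median log2 fold change of the enzymes was 0.71, against −0.01 for all genes tested, and single genes ran from −0.87 (Acmsd) to 2.73 (Inmt). In 32 genes every knockout liver lay above every control liver, and in 1 gene every knockout liver lay below, where the background over all genes was 21.4% and 22.5%. The size of the difference depended on the scaling: with library totals 21 enzymes rose and 2 fell, and with libraries scaled to the hepatocyte markers, an alternative chosen after seeing the data, 12 rose and 2 fell. Those 12 (Hpd, Tdo2, Ido2, Afmid, Haao, Hal, Uroc1, Gnmt, Sardh, Prodh, Prodh2 and Inmt) passed under each of the 15 alternatives tried.

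**Figure D1:**
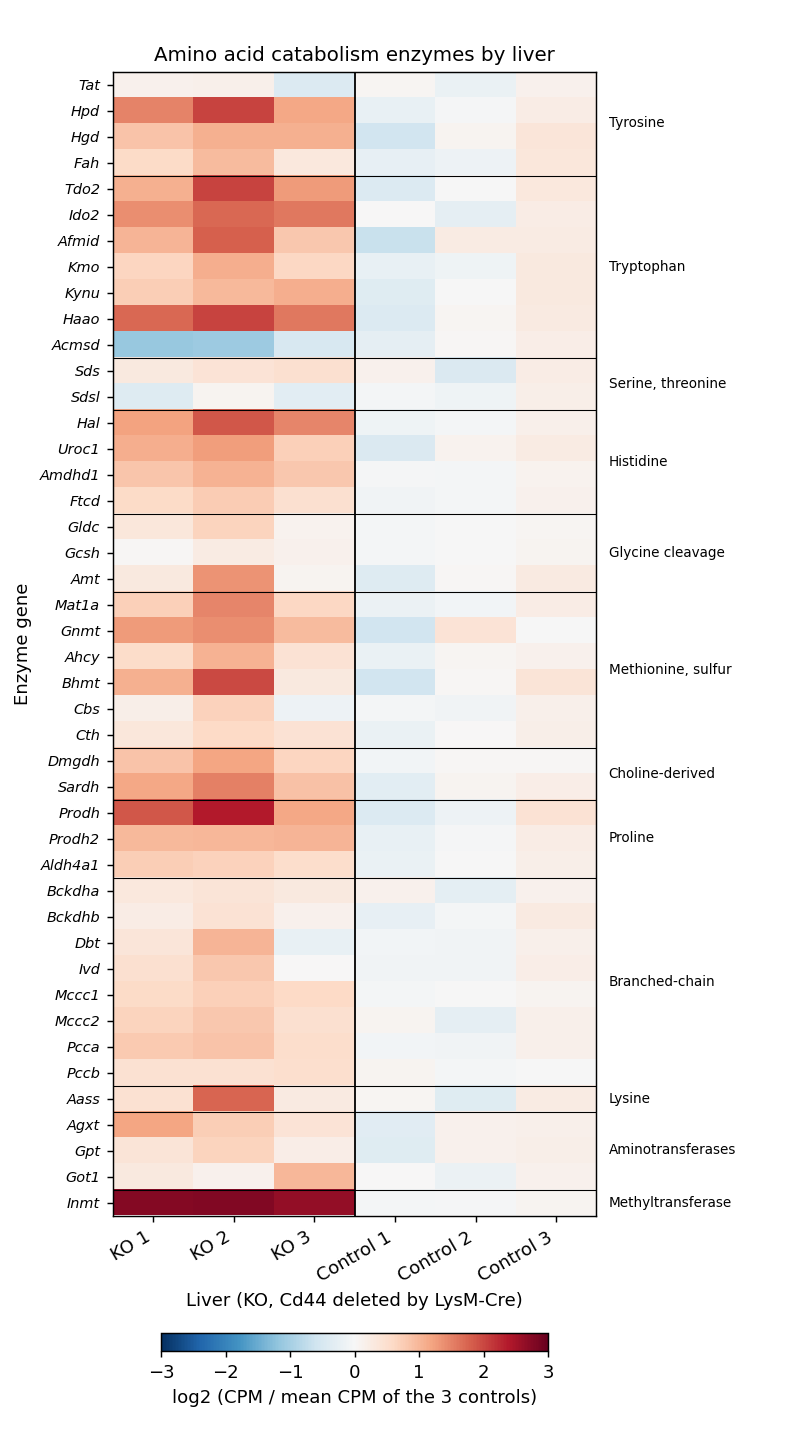
Heat map of log2 (CPM divided by the mean CPM of the 3 controls) for the 44 enzyme genes (rows, grouped by the amino acid they degrade) in each knockout and control liver (columns). Most rows are red in all 3 knockout livers, Inmt most deeply, while Acmsd is blue and Tat, Sdsl and Gcsh stay pale.

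The same livers were high or low across many of the enzymes. Among the knockouts, liver 2 held the highest value for 36 of the 44 genes and liver 3 the lowest for 30. Among the controls, liver 3 held the highest value for 41 genes and liver 1 the lowest for 31. The same shares over all genes were not computed, so these patterns are not shown to be particular to the enzymes. Together the 44 genes summed to 31587, 45548 and 26772 CPM in knockout livers 1 to 3, against 16230, 18161 and 21455 CPM in control livers 1 to 3. The lowest knockout sum was thus above the highest control sum. Knockout liver 2 also had the largest library (24042917 counts), the lowest TMM factor (0.865) and the highest albumin share (8.34% of counts, against 7.76% and 6.82% in the other knockouts), and the part of these in its high enzyme levels was not tested. Without it, 25 enzymes rose and 1 fell, and without knockout liver 3, 32 rose and 1 fell.

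**Figure D2:**
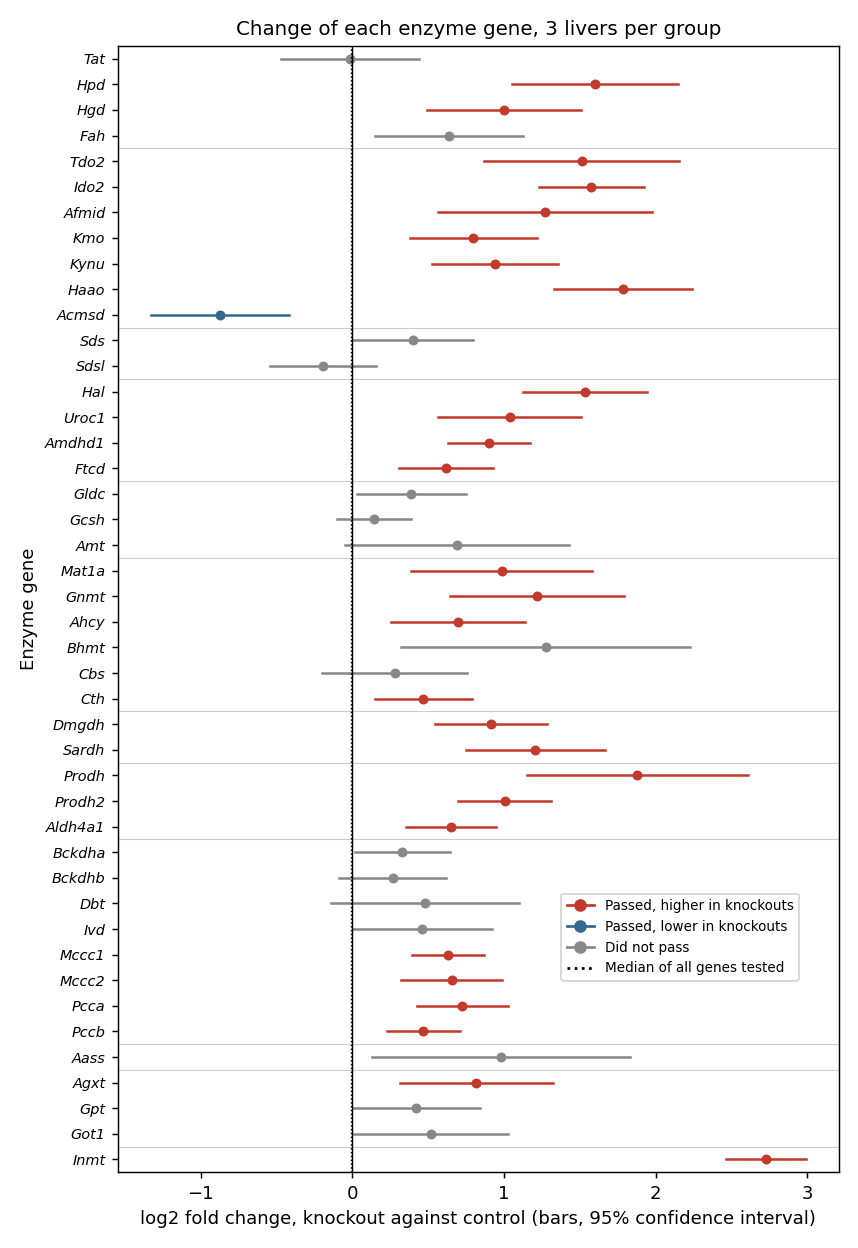
Log2 fold change of each enzyme gene, knockout against control, with its 95% confidence interval from edgeR (3 livers per group). Red points passed as higher (27 genes), the blue point passed as lower (Acmsd), grey points did not pass, and the dotted line is the median of all genes tested (−0.01).

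The bases upstream of 3 of these genes are shown because the genes differ in their responses: Inmt rose most, Hal is the entry enzyme of a route in which every gene rose, and Tat did not pass. The sequences are from RefSeq (GRCm38.p6), 5′ to 3′ on the strand of the gene, and stop before the start of the gene in GENCODE M21 (GRCm38), from which all gene positions here are taken. They cover chr6:55175044-55175240 (minus strand), chr10:93488518-93488767 (plus) and chr8:109990186-109990435 (plus). Capitals mark matches on either strand to TATAAA (the core promoter box), TTGCNNAA (C/EBP), AAAGTCCA (HNF4), GTTAATNA (1 arm of the HNF1 element), TGTTCT (1 arm of the glucocorticoid receptor element), TGACGTCA (the cAMP response element) or its arm TGACG, which lies within the full element.
Inmt: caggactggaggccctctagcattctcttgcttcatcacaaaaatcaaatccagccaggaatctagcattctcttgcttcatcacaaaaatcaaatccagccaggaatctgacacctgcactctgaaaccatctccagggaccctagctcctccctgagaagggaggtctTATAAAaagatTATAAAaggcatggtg
Hal: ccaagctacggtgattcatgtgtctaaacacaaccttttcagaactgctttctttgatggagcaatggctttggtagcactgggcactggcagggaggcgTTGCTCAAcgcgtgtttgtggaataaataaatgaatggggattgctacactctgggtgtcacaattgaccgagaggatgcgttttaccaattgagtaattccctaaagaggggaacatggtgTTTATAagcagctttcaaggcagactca
Tat: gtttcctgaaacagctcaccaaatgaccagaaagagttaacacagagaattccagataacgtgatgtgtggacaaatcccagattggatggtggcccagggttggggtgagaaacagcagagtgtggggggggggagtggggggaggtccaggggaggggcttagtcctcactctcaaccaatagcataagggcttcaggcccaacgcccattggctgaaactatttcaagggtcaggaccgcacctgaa

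Inmt has a pair of TATAAA matches on the strand of the gene, the first of them 27 bases before the GENCODE start. The RefSeq start of Inmt lies 53 bases inside the GENCODE gene, so both matches lie further upstream of that start. Hal has a TATAAA match on the opposite strand, 28 bases before its start, and a C/EBP match 150 bases before it. None of the 7 letter patterns occurs in the window of Tat. A RefSeq window lay within 300 bases of the GENCODE start for 30 of the 44 enzymes. TATAAA occurred in 4 of these 30 (Hgd, Hal, Ftcd and Inmt), against 12.4% of all 32851 RefSeq windows. The C/EBP pattern occurred in 4 (Hgd, Hal, Prodh2 and Aass), against 9.56% of all windows. HNF4 matched 1 (1.01% of all windows), HNF1 matched 2 (2.33%), the glucocorticoid receptor arm 3 (16.1%), the cAMP arm 3 (17.8%) and the full cAMP element 0 (1.55%). The member windows hold at most 250 bases, and fewer where the GENCODE start lies further upstream, so these shares are not fully like for like. They are matches of letters, not measured binding.

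Tyrosine is degraded to fumarate and acetoacetate by Tat, Hpd, Hgd, the isomerase Gstz1 and Fah in turn. Of the 4 that are members, Hpd and Hgd rose, and Tat and Fah did not pass. Tat, tyrosine aminotransferase, which starts the route, had 3172, 3210.0 and 2164 CPM in the knockout livers, against 2996, 2492 and 3161 CPM in the control livers. The groups overlapped fully and the gene did not pass (log2 −0.017, 95% interval −0.47 to 0.44, adjusted p = 0.962). The point estimate of Tat turned to 0.15, 0.027 and 0.079 without knockout liver 3, control liver 1 and control liver 3. Hpd (ENSMUSG00000029445, chromosome 5, 123171807 to 123182727 on the minus strand), the dioxygenase that makes homogentisate, had 1973, 2857 and 1574 CPM in the knockout livers, against 599.6, 686 and 828 CPM in the control livers. Its lowest knockout value was well above its highest control value, and it rose 3.03-fold (log2 1.6, SE 0.24, adjusted p = 0.00298). The ratio of Hpd to Tat counts was 0.622, 0.89 and 0.727 in the knockouts and 0.2, 0.275 and 0.262 in the controls, so the livers of the groups did not overlap in this ratio either; the ratio was chosen after the values were seen and was not tested. Hgd, homogentisate dioxygenase, had 536, 618 and 613 CPM in the knockout livers, against 197, 311 and 376 CPM in the control livers, with no overlap (log2 0.999, SE 0.22, adjusted p = 0.014). With hepatocyte marker scaling Hgd did not pass (adjusted p = 0.0661). Fah, the hydrolase of the last step, averaged 471 ± 109 CPM in knockouts and 303 ± 69 CPM in controls, and did not pass (log2 0.64, 95% interval 0.15 to 1.12, adjusted p = 0.059). It passed without knockout liver 3 (adjusted p = 0.038), without control liver 3 (adjusted p = 0.0342), with DESeq2 (adjusted p = 0.017) and with no filter (adjusted p = 0.0136).

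Tryptophan is opened by dioxygenases and carried through kynurenine to a semialdehyde that either becomes quinolinate, the precursor of NAD, or is diverted by the decarboxylase ACMSD to complete oxidation. All 6 enzymes up to the branch point rose, and the diverting enzyme fell. Tdo2 (ENSMUSG00000028011, chromosome 3, 81957090 to 81976202 on the minus strand), the main tryptophan dioxygenase of liver, had 1049, 2026 and 1206 CPM in the knockout livers, against 379, 498 and 624 CPM in the control livers. Every knockout liver lay above every control, and knockout liver 2 was the highest by far (log2 1.51, SE 0.28, adjusted p = 0.00692). Ido2, a related dioxygenase of low activity, reached 82.9, 103 and 94 CPM in knockout livers and 31.5, 26.2 and 36.4 CPM in control livers, and rose 2.98-fold (log2 1.57, SE 0.15, adjusted p = 0.000657). Afmid, the formamidase of the second step, had 22.5, 38.2 and 19.4 CPM in knockouts and 7.03, 13.1 and 13.2 CPM in controls (log2 1.27, SE 0.31, adjusted p = 0.0194). The groups did not overlap in either gene. Afmid shares 1566 exon bases with Gm20708 on its own strand and 83 with Tk1 on the other, so its count is uncertain.

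Kynurenine itself is hydroxylated by KMO and cleaved by KYNU. Kmo had 264, 357 and 259.5 CPM in the knockout livers, against 145, 154 and 207 CPM in the control livers, with all knockouts above all controls (log2 0.80, SE 0.18, adjusted p = 0.016). It did not pass without control liver 2 (adjusted p = 0.0609) or with hepatocyte marker scaling (adjusted p = 0.181). Kynu had 149, 177 and 191 CPM in the knockout livers, against 69.4, 89.4 and 111 CPM in the control livers, and here knockout liver 3 and not liver 2 was highest (log2 0.94, SE 0.18, adjusted p = 0.00797). With hepatocyte marker scaling Kynu had an adjusted p of 0.0836. Haao (ENSMUSG00000000673, chromosome 17, 83831156 to 83847963 on the minus strand), the dioxygenase that opens the ring of 3-hydroxyanthranilate, had 339.7, 417 and 306 CPM in the knockout livers, against 77.1, 107 and 125 CPM in the control livers. It rose 3.45-fold, the largest change of this route (log2 1.78, SE 0.20, adjusted p = 0.00103).

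Acmsd (ENSMUSG00000026348, chromosome 1, 127729413 to 127767978 on the plus strand) went the other way. It had 12, 12.5 and 18.9 CPM in the knockout livers, against 22.1, 27 and 30.4 CPM in the control livers, so that every knockout liver lay below every control. It fell 1.83-fold (log2 −0.87, SE 0.20, adjusted p = 0.0155), and was the only one of the 44 genes to fall. The call did not hold without knockout liver 1 (adjusted p = 0.0599), control liver 2 (adjusted p = 0.0511) or control liver 3 (adjusted p = 0.0575), while the log2 value stayed between −1.31 and −0.74 under all alternatives tried. Acmsd shares 94 exon bases with 2900009J06Rik on the opposite strand. The ratio of Haao to Acmsd counts was 28.2, 33.4 and 16.2 in the knockouts and 3.49, 3.95 and 4.11 in the controls, a description chosen after the values were seen. On the branch to NAD, Qprt averaged 158 ± 23.1 CPM in knockouts and 136 ± 14.6 CPM in controls and did not pass (log2 0.21, SE 0.14, adjusted p = 0.314). Ido1, the dioxygenase of immune and other cells, was at 0 in all knockouts and reached at most 0.0967 CPM in the controls, below the level of 3 counts in a library (0.119 to 0.148 CPM).

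**Figure D3:**
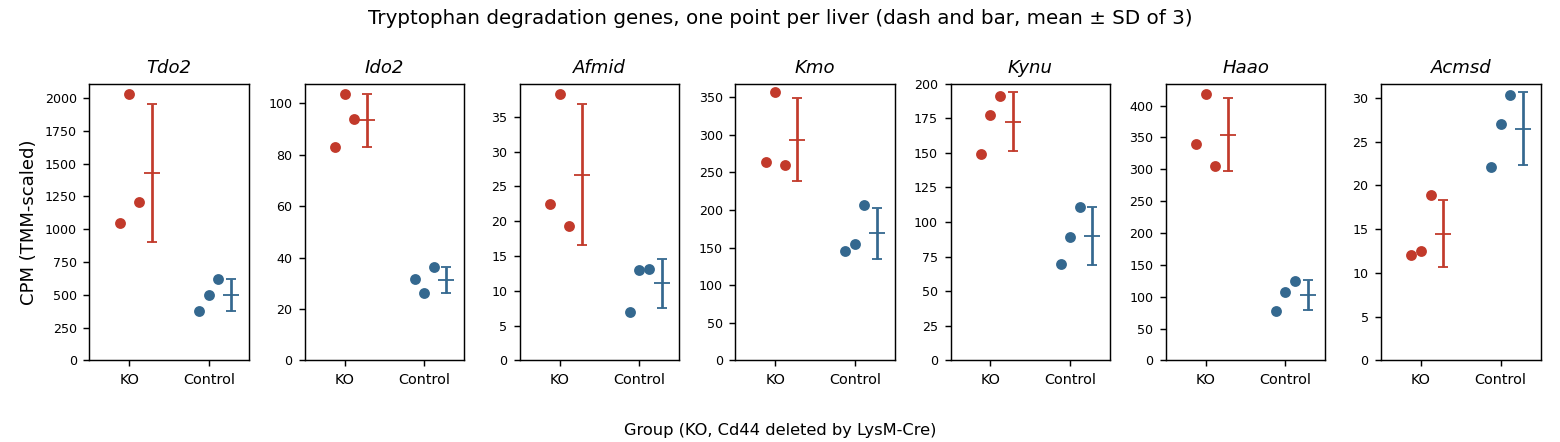
TMM-scaled CPM of the 7 tryptophan degradation genes in pathway order, 1 point per liver, knockouts left and controls right, with the mean and SD of 3 livers and a separate axis from 0 for each gene. The knockout points lie above the control points for Tdo2, Ido2, Afmid, Kmo, Kynu and Haao and below them for Acmsd.

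All 4 enzymes of histidine breakdown rose, and the change was largest at the first step. Hal (ENSMUSG00000020017, chromosome 10, 93488768 to 93519304 on the plus strand), which removes ammonia from histidine to give urocanate, had 340.3, 529.9 and 404 CPM in the knockout livers, against 135, 142 and 163 CPM in the control livers. The lowest knockout value lay far above the highest control value, as the groups were apart in all 4 genes, and Hal rose 2.89-fold (log2 1.53, SE 0.18, adjusted p = 0.00117). Uroc1, urocanase, had 595, 669 and 464 CPM in the knockout livers, against 209, 302 and 331 CPM in the control livers (log2 1.04, SE 0.21, adjusted p = 0.00904). Amdhd1, which opens the imidazolone ring and neighbours Hal on chromosome 10, had 223, 259 and 221 CPM in the knockout livers, against 122, 121 and 134 CPM in the control livers. The spread of Amdhd1 within each group was small (log2 0.90, SE 0.12, adjusted p = 0.0017), and the call was lost with hepatocyte marker scaling (adjusted p = 0.0849). Ftcd hands the last carbon to tetrahydrofolate, and had 544, 622 and 511 CPM in the knockout livers, against 339, 352 and 401 CPM in the control livers (log2 0.62, SE 0.13, adjusted p = 0.0129). It had the smallest change of the 4 and did not pass with library totals (adjusted p = 0.0538) or hepatocyte marker scaling (adjusted p = 0.546).

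Serine dehydratase and its paralogue behaved otherwise. Sds, which converts serine to pyruvate and threonine to 2-oxobutyrate, had 252, 272 and 285 CPM in the knockout livers, against 225, 152 and 237 CPM in the control livers. The knockouts lay just above the controls, but the gene did not pass (log2 0.40, 95% interval 0.00026 to 0.80, adjusted p = 0.131), and with hepatocyte marker scaling its log2 value was −0.074. Sds shares 501 exon bases with Gm15690 and Plbd2 on the opposite strand and is uncertain to that extent. Sdsl, the neighbouring serine dehydratase-like gene, averaged 27.4 ± 5.05 CPM in knockouts and 31.4 ± 3.38 CPM in controls. Its groups overlapped (log2 −0.19, 95% interval −0.54 to 0.16, adjusted p = 0.394), and it was lower in the knockouts with library totals (adjusted p = 0.0354) and with hepatocyte marker scaling (adjusted p = 0.0147). The ratio of Hal to Sds counts was 1.35, 1.95 and 1.42 in knockouts and 0.601, 0.935 and 0.688 in controls. It was chosen after the values were seen and not tested. Ratios of Mccc1 to Bckdha and of Gnmt to Cbs were also computed and separated the groups less. Their smallest knockout value was 1.005 and 1.127 times the largest control value. That figure was 1.446 for Hal to Sds, 2.26 for Hpd to Tat and 3.94 for Haao to Acmsd.

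None of the 3 genes of the glycine cleavage system passed. This mitochondrial complex splits glycine into carbon dioxide, ammonia and a one-carbon unit on tetrahydrofolate. Gldc, its decarboxylase, had 310.0, 392 and 263 CPM in the knockout livers, against 236, 245 and 256 CPM in the control livers. The highest control lay just under the lowest knockout, and the gene did not pass (log2 0.39, 95% interval 0.029 to 0.75, adjusted p = 0.107), though it did without knockout liver 3 (adjusted p = 0.0416). Gcsh, the lipoyl carrier protein, was at 84.2 ± 5.8 CPM in knockouts and 76.4 ± 3.79 CPM in controls, with overlapping groups (log2 0.14, 95% interval −0.10 to 0.39, adjusted p = 0.374). Its direction turned to −0.12 with library totals, and with hepatocyte marker scaling Gcsh stood at −0.34 and Gldc at −0.11. Amt, the aminomethyltransferase, averaged 90.2 ± 45.7 CPM in knockouts and 55.9 ± 12.4 CPM in controls, with knockout liver 2 at 143 CPM where the other knockouts had 68.6 and 59.3 CPM (log2 0.69, 95% interval −0.045 to 1.43, adjusted p = 0.154). With no filter Amt passed (adjusted p = 0.0376).

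Dmgdh and Sardh, which take methyl groups in turn from dimethylglycine and sarcosine, both rose. Dmgdh, dimethylglycine dehydrogenase, had 683, 866 and 592 CPM in the knockout livers, against 358, 387 and 391 CPM in the control livers (log2 0.91, SE 0.16, adjusted p = 0.00552). Sardh, sarcosine dehydrogenase, which makes glycine from sarcosine, had 974, 1232 and 804 CPM in the knockout livers, against 349.9, 459 and 495 CPM in the control livers (log2 1.21, SE 0.20, adjusted p = 0.00442). In both genes all knockouts lay above all controls. Dmgdh did not pass with hepatocyte marker scaling (adjusted p = 0.0832), and each of the genes shares under 300 exon bases with an antisense gene (AW495222 and Sardhos).

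In the methionine cycle, 4 of 6 genes rose. Mat1a, the liver form of methionine adenosyltransferase, had 7325, 12415 and 6835 CPM in the knockout livers, against 3976, 4236 and 5213 CPM in the control livers. Every knockout exceeded every control (log2 0.99, SE 0.26, adjusted p = 0.0269), but the call was lost without control liver 1 (adjusted p = 0.0722) or 2 (adjusted p = 0.0794) and with hepatocyte marker scaling (adjusted p = 0.0635). Gnmt, which uses up S-adenosylmethionine to make sarcosine, had 1878, 2043 and 1496 CPM in the knockout livers, against 524, 1039 and 769.9 CPM in the control livers. Control liver 1 was the lowest, the groups did not overlap, and the gene rose 2.32-fold (log2 1.21, SE 0.25, adjusted p = 0.0105). Ahcy, which splits S-adenosylhomocysteine, had 1525, 2154 and 1423 CPM in the knockout livers, against 906, 1083 and 1155 CPM in the control livers (log2 0.70, SE 0.19, adjusted p = 0.0316), again with the groups apart. The call for Ahcy was close to the threshold: leaving out any liver except knockout liver 3 ended it (adjusted p = 0.0606 and 0.0674 without knockout livers 1 and 2, and 0.0828, 0.0761 and 0.0554 without control livers 1 to 3), as did library totals (adjusted p = 0.0821) and hepatocyte marker scaling (adjusted p = 0.37).

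Homocysteine can be remethylated or turned into cysteine. Bhmt, which takes the methyl group from betaine, had 4456, 8334 and 2574 CPM in the knockout livers, against 1412, 2184 and 2755 CPM in the control livers. Knockout liver 2 was the highest and knockout liver 3 lay below control liver 3, and the gene did not pass (log2 1.27, 95% interval 0.32 to 2.23, adjusted p = 0.0554). Without knockout liver 3 Bhmt passed (adjusted p = 0.018), as it did with no filter (adjusted p = 0.00191). Cbs, the entry to transsulfuration, had 399, 571 and 318 CPM in the knockout livers, against 339.7, 327 and 393 CPM in the control livers, with overlapping groups (log2 0.28, 95% interval −0.20 to 0.76, adjusted p = 0.363) and a value of −0.23 with hepatocyte marker scaling. Cth, cystathionine gamma-lyase, which releases cysteine, had 361, 433 and 385 CPM in the knockout livers, against 246, 287 and 319.7 CPM in the control livers. Of the 27 genes that rose it lay closest to the threshold (log2 0.47, SE 0.14, adjusted p = 0.0418), and leaving out any liver except control liver 3 ended the call (adjusted p = 0.0734, 0.102 and 0.069 without knockout livers 1 to 3, and 0.0985 and 0.1 without control livers 1 and 2). With library totals Cth had an adjusted p of 0.248, and with hepatocyte marker scaling its log2 value was −0.0064 (adjusted p = 0.979). Bhmt shares 187 exon bases with the antisense gene Gm15622.

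The 3 proline enzymes all rose. Prodh (ENSMUSG00000003526, chromosome 16, 18060357 to 18090203 on the minus strand), the mitochondrial proline dehydrogenase, had 299, 429 and 185 CPM in the knockout livers, against 62.6, 74.5 and 111 CPM in the control livers. Its values differed widely among the knockouts, yet the lowest of them lay above every control, and the 3.68-fold rise was the second largest of the 44 genes (log2 1.88, SE 0.32, adjusted p = 0.0049). Prodh2, the related hydroxyproline dehydrogenase, had 162, 165 and 167 CPM in the knockout livers, against 70.5, 79.5 and 96.1 CPM in the control livers, and the knockouts were almost equal (log2 1.00, SE 0.13, adjusted p = 0.00182). Aldh4a1, which completes the oxidation of proline to glutamate, had 217, 209.5 and 186 CPM in the knockout livers, against 114, 129.7 and 147 CPM in the control livers (log2 0.65, SE 0.13, adjusted p = 0.00943). The groups did not overlap in any of these 3 genes. Aldh4a1 shares 1595 exon bases with Gm21969 on the same strand and did not pass with hepatocyte marker scaling (adjusted p = 0.445). The first lysine enzyme, Aass, had 277, 684 and 245 CPM in the knockout livers, against 210.2, 159 and 241 CPM in the control livers. Knockout liver 2 stood far above the other livers, and Aass did not pass (log2 0.98, 95% interval 0.13 to 1.83, adjusted p = 0.0884). It passed without knockout liver 3 (adjusted p = 0.043) and with no filter (adjusted p = 0.00767).

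Branched-chain amino acids are oxidised by the mitochondrial branched-chain ketoacid dehydrogenase complex and then by routes specific to leucine, isoleucine and valine. No gene of the complex passed, while the 4 biotin carboxylase genes further down rose. Bckdha, the E1 alpha subunit, had 70.4, 75 and 69.3 CPM in the knockout livers, against 62.1, 46.5 and 62.1 CPM in the control livers (log2 0.33, 95% interval 0.021 to 0.64, adjusted p = 0.111). Its lowest knockout value lay above its highest control, and 1171 of its exon bases are shared with B3gnt8 on the other strand. Bckdhb, E1 beta, averaged 77.8 ± 8.62 CPM in knockouts and 64.7 ± 11.7 CPM in controls (log2 0.27, 95% interval −0.085 to 0.62, adjusted p = 0.241). Dbt, the E2 core, had 104, 165 and 69.4 CPM in the knockout livers, against 76.9, 75.8 and 90.3 CPM in the control livers, with knockout liver 3 below all controls (log2 0.48, 95% interval −0.14 to 1.10, adjusted p = 0.234). Ivd, isovaleryl-CoA dehydrogenase of the leucine route, averaged 205 ± 54.9 CPM in knockouts and 149 ± 18.9 CPM in controls (log2 0.46, 95% interval 0.0065 to 0.92, adjusted p = 0.127). Without knockout liver 3 both Dbt (adjusted p = 0.0372) and Ivd (adjusted p = 0.0269) passed, and with hepatocyte marker scaling Bckdha, Bckdhb, Dbt and Ivd stood at −0.15, −0.21, −0.054 and −0.041.

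The carboxylases need biotin and are built of alpha and beta subunits. Mccc1, the alpha subunit of methylcrotonyl-CoA carboxylase, had 57.8, 63 and 58.5 CPM in the knockout livers, against 37.2, 38 and 40.6 CPM in the control livers (log2 0.63, SE 0.10, adjusted p = 0.00422). Its beta subunit Mccc2 had 62.2, 68.2 and 54.8 CPM in the knockout livers, against 41.3, 32.5 and 43.7 CPM in the control livers (log2 0.66, SE 0.15, adjusted p = 0.0138). In both subunits the spread within groups was small and the groups were apart. Pcca, the alpha subunit of propionyl-CoA carboxylase, which isoleucine, valine, methionine and threonine share, had 113, 119 and 94.3 CPM in the knockout livers, against 62.5, 61.3 and 73.3 CPM in the control livers (log2 0.73, SE 0.13, adjusted p = 0.00622). Its partner Pccb had 212, 211 and 218 CPM in the knockout livers, against 163, 148 and 153 CPM in the control livers (log2 0.47, SE 0.10, adjusted p = 0.0141). The call for Pccb was lost without knockout liver 1 (adjusted p = 0.0514) or control liver 2 (adjusted p = 0.0525). With library totals Mccc2 (adjusted p = 0.0513) and Pccb (adjusted p = 0.176) did not pass, and with hepatocyte marker scaling none of the 4 did (adjusted p = 0.523, 0.502, 0.296 and 0.977 for Mccc1, Mccc2, Pcca and Pccb). Whether the carboxylases changed more than the dehydrogenase complex was not tested. Mccc1 shares 613 exon bases with antisense genes and Pcca 241 with Ggact.

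Of the aminotransferases, Agxt rose. Agxt, which detoxifies glyoxylate with alanine in mitochondria and peroxisomes, had 496, 364 and 287 CPM in the knockout livers, against 171, 238 and 242 CPM in the control livers (log2 0.82, SE 0.22, adjusted p = 0.0285). The groups were apart, but the call was lost without knockout liver 1 (adjusted p = 0.0907), without control livers 1, 2 or 3 (adjusted p = 0.0783, 0.0624 and 0.0536), with library totals (adjusted p = 0.0832) and with hepatocyte marker scaling (adjusted p = 0.234). Gpt, the alanine aminotransferase whose activity in serum marks liver injury, had 416, 505 and 365 CPM in the knockout livers, against 249.5, 352 and 359.7 CPM in the control livers. Knockout liver 3 barely exceeded the highest control, and Gpt did not pass (log2 0.42, 95% interval 0.0015 to 0.84, adjusted p = 0.13; −0.063 with hepatocyte marker scaling). Got1, cytosolic aspartate aminotransferase, averaged 539 ± 179 CPM in knockouts and 376 ± 39.7 CPM in controls (log2 0.52, 95% interval 0.012 to 1.03, adjusted p = 0.124). Knockout liver 3 held the highest Got1 value, 744 CPM, unlike in most of the other enzymes.

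Inmt (ENSMUSG00000003477, chromosome 6, 55170626 to 55175043 on the minus strand), an S-adenosylmethionine-dependent methyltransferase of indolamines such as tryptamine, had the largest change of all 44 genes. It had 268, 273 and 247 CPM in the knockout livers, against 37.9, 38.8 and 42.2 CPM in the control livers. The 3 values within each group were close to each other and the groups far apart, a 6.62-fold rise (log2 2.73, SE 0.11, adjusted p = 3.52e-05). Its log2 value ran from 2.25 to 2.80 over the alternatives tried.

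Levels of different genes were compared as CPM per kilobase of exon, with the union of all annotated exons as length, which understates genes with long rare isoforms such as Mccc1. Mat1a led in both groups (2554 ± 891 in knockouts and 1290.3 ± 188 in controls). In the controls Tat came next and Gnmt after it, and in the knockouts Gnmt stood above Tat (Gnmt 1497 ± 232 in knockouts and 645 ± 214 in controls; Tat 1184 ± 247 in knockouts and 1199 ± 145 in controls). Tat and Mat1a did not differ beyond their spread in the controls. After them in the controls came Ahcy, Bhmt and Hpd within each other's spread (Ahcy 606 ± 141 in knockouts and 374 ± 45.7 in controls; Bhmt 889 ± 510.1 in knockouts and 368 ± 117 in controls; Hpd 1003 ± 309 in knockouts and 331 ± 54.2 in controls). The least abundant genes per kilobase were Acmsd (5.11 ± 1.35 in knockouts and 9.36 ± 1.46 in controls) and Mccc1 in the knockouts, and Afmid (7.54 ± 2.85 in knockouts and 3.13 ± 0.993 in controls) and Mccc1 in the controls. Inmt ranked 16 among the 44 in knockouts and 32 in controls, and Haao 24 in knockouts and 35 in controls.

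In 5 lists of further genes of these routes, between 4 and 7 genes each rose and 0 fell. Among all genes tested 11.9% rose and 13.1% fell. The lists were chosen with earlier results of these data known, so they are no independent extension of the enzyme result. Of 10 tested further genes of aromatic amino acid breakdown 6 rose and 0 fell. Aadat, an aminotransferase that makes kynurenic acid, averaged 55.4 ± 5.08 CPM in knockouts and 23.4 ± 2.39 CPM in controls (log2 1.24, SE 0.13, adjusted p = 0.000748). Gcdh, of the shared lysine and tryptophan end route, averaged 532 ± 59.4 CPM in knockouts and 287 ± 31.8 CPM in controls (log2 0.89, SE 0.14, adjusted p = 0.00372), and Ddc, the aromatic amino acid decarboxylase, 74.2 ± 4.97 CPM in knockouts and 43.3 ± 5.17 CPM in controls (log2 0.78, SE 0.12, adjusted p = 0.00374). Gcdh and Ddc did not pass with hepatocyte marker scaling (adjusted p = 0.0864 and 0.262).

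Of 13 tested further branched-chain genes 7 rose and 0 fell, 2 with library totals and 0 with hepatocyte marker scaling, and 4 without control liver 2. Hibch, a hydrolase of the valine route, averaged 75.8 ± 2.22 CPM in knockouts and 48.2 ± 4.84 CPM in controls (log2 0.65, SE 0.11, adjusted p = 0.00513), and Aldh6a1, the dehydrogenase at its end, 408 ± 62.8 CPM in knockouts and 228 ± 23.8 CPM in controls (log2 0.84, SE 0.15, adjusted p = 0.00604). Mcee, methylmalonyl-CoA epimerase, averaged 32.7 ± 2.84 CPM in knockouts and 21.3 ± 2.8 CPM in controls (log2 0.62, SE 0.13, adjusted p = 0.0125), and Hibadh, of the valine route, 281 ± 30.1 CPM in knockouts and 190.5 ± 13.4 CPM in controls (log2 0.56, SE 0.13, adjusted p = 0.0143), with an adjusted p of 0.0523 without knockout liver 1. The kinase Bckdk and phosphatase Ppm1k, which switch the dehydrogenase complex off and on, did not pass (log2 0.26, SE 0.13, adjusted p = 0.177 and log2 0.14, SE 0.16, adjusted p = 0.556). They were chosen after their values were seen.

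Of 12 tested further sulfur genes 4 rose and 0 fell, and 1 and 2 passed without control livers 1 and 2, and 2 with library totals. Suox, sulfite oxidase, averaged 156 ± 14.7 CPM in knockouts and 78.5 ± 4.17 CPM in controls (log2 0.99, SE 0.12, adjusted p = 0.00118). Cdo1, which commits cysteine to taurine and sulfate, averaged 2108 ± 757 CPM in knockouts and 982 ± 229 CPM in controls (log2 1.10, SE 0.28, adjusted p = 0.0217), and did not pass without control liver 1 (adjusted p = 0.059) or 2 (adjusted p = 0.0578). Mpst (log2 0.79, SE 0.21, adjusted p = 0.0285), a sulfurtransferase, and Bhmt2 (log2 0.85, SE 0.23, adjusted p = 0.0293), a homocysteine methyltransferase, also rose. Mpst did not pass without control livers 1, 2 or 3 (adjusted p = 0.0817, 0.0735 and 0.0622), nor Bhmt2 without knockout livers 1 or 2 (adjusted p = 0.0522 and 0.0712) or control livers 1 or 2 (adjusted p = 0.0746 and 0.0953). Both calls were also lost with library totals (adjusted p = 0.0654 for Mpst and 0.0596 for Bhmt2) and with hepatocyte marker scaling (adjusted p = 0.258 for Mpst and 0.149 for Bhmt2). Mat2a, the methionine adenosyltransferase of cells outside the liver parenchyma, averaged 181 ± 14.3 CPM in knockouts and 176 ± 18.9 CPM in controls (log2 0.037, SE 0.13, adjusted p = 0.861), and was chosen after its value was seen.

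Of 9 tested further one-carbon genes 7 rose and 0 fell. The serine hydroxymethyltransferases Shmt1 (197 ± 4.86 CPM in knockouts and 78.5 ± 24.9 CPM in controls; log2 1.33, SE 0.21, adjusted p = 0.00399) and Shmt2 (227 ± 36.3 CPM in knockouts and 112 ± 13.7 CPM in controls; log2 1.02, SE 0.16, adjusted p = 0.00327), which exchange serine and glycine, both rose. Mthfd1, a folate enzyme, averaged 223 ± 24.7 CPM in knockouts and 107 ± 26.4 CPM in controls (log2 1.05, SE 0.18, adjusted p = 0.00502), and Pipox, a sarcosine and pipecolate oxidase of peroxisomes, 287 ± 56 CPM in knockouts and 135 ± 24.2 CPM in controls (log2 1.09, SE 0.19, adjusted p = 0.00485). Of 11 tested further nitrogen-handling genes 7 rose and 0 fell. Oat, ornithine aminotransferase, averaged 998 ± 131 CPM in knockouts and 260.0 ± 111 CPM in controls (log2 1.94, SE 0.28, adjusted p = 0.00281), and Aspg, an asparaginase, 155 ± 16.1 CPM in knockouts and 51.5 ± 5.64 CPM in controls (log2 1.59, SE 0.13, adjusted p = 0.000414). Ddo, D-aspartate oxidase, averaged 30.2 ± 1.9 CPM in knockouts and 10.7 ± 1.79 CPM in controls (log2 1.5, SE 0.14, adjusted p = 0.00065), and Srr, serine racemase, 60.8 ± 4.08 CPM in knockouts and 38 ± 1.27 CPM in controls (log2 0.68, SE 0.11, adjusted p = 0.00341). With hepatocyte marker scaling Shmt2 did not pass (adjusted p = 0.0748), nor did Chdh and Gcat, which also rose with TMM (adjusted p = 0.673 and 0.51). Of the nitrogen-handling genes that rose, Srr, Glud1, Gls2 and Agxt2 did not pass with that scaling (adjusted p = 0.412, 0.871, 0.0823 and 0.678).

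Of 16 amino acid transporters 6 rose and 3 fell, where 11.9% of all genes tested rose and 13.1% fell. Without control liver 2 the number that changed was 5 in place of 9. Slc1a2, a glutamate transporter, averaged 106 ± 18.1 CPM in knockouts and 15 ± 6.9 CPM in controls (log2 2.82, SE 0.30, adjusted p = 0.000869), and Slc25a44, a mitochondrial branched-chain amino acid carrier, 120.1 ± 15.7 CPM in knockouts and 66.3 ± 11.4 CPM in controls (log2 0.86, SE 0.16, adjusted p = 0.00653; adjusted p = 0.161 with hepatocyte marker scaling). Those that fell were Slc7a1, Slc7a8 and Slc1a4. Slc7a1, a cationic amino acid transporter, averaged 4.66 ± 2.1 CPM in knockouts and 13.1 ± 1.8 CPM in controls (log2 −1.48, SE 0.30, adjusted p = 0.0101), Slc7a8, a neutral amino acid exchanger, 6.64 ± 2.00 CPM in knockouts and 16 ± 3.01 CPM in controls (log2 −1.27, SE 0.24, adjusted p = 0.00707), and Slc1a4, which carries alanine, serine and cysteine, 12.7 ± 5.97 CPM in knockouts and 25.2 ± 3.21 CPM in controls (log2 −0.99, SE 0.29, adjusted p = 0.0405). Slc1a4 was named after its value was seen, and leaving out any liver except knockout liver 2 ended its call (adjusted p = 0.124 and 0.0646 without knockout livers 1 and 3, and 0.0626, 0.116 and 0.118 without control livers 1 to 3).

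Of 16 transcription factors and other regulators of liver metabolism, 9 rose and 1 fell, where 11.9% of all genes tested rose and 13.1% fell. Nr1i3, the nuclear receptor CAR, averaged 60.6 ± 9.96 CPM in knockouts and 13.5 ± 2.69 CPM in controls (log2 2.16, SE 0.18, adjusted p = 0.000414), Foxa2, a forkhead factor, 41 ± 7.22 CPM in knockouts and 18.3 ± 3.37 CPM in controls (log2 1.16, SE 0.18, adjusted p = 0.00352), and Cebpa, the C/EBP factor of mature hepatocytes, 526 ± 67.7 CPM in knockouts and 248 ± 54.1 CPM in controls (log2 1.09, SE 0.18, adjusted p = 0.00469). Nr3c1, the glucocorticoid receptor, averaged 99.7 ± 8.72 CPM in knockouts and 66.4 ± 2.9 CPM in controls (log2 0.59, SE 0.11, adjusted p = 0.00752), and did not pass with library totals (adjusted p = 0.0594) or hepatocyte marker scaling (adjusted p = 0.666). The 1 that fell was Cebpb, the C/EBP factor of the acute-phase response, which was named after its value was seen. It averaged 137 ± 33.2 CPM in knockouts and 260.4 ± 75.7 CPM in controls (log2 −0.92, SE 0.25, adjusted p = 0.0274), and did not pass without knockout liver 2 or 3 (adjusted p = 0.0702 and 0.0724) or control liver 1 or 3 (adjusted p = 0.0876 and 0.0826).

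The change of the enzymes was set beside that of all genes tested under 3 scalings. With library totals the median of all genes moved to −0.26 and that of the enzymes to 0.45. Scaling to the 12 hepatocyte markers moved the median of all genes to −0.49 and that of the enzymes to 0.22. A change of scaling shifts every gene by nearly the same amount, so the distance between both medians is nearly fixed by construction and is no sign of stability. The marker list itself holds genes that rose with TMM, among them Ttr and the urea cycle enzyme Cps1, so by construction this scaling removes part of any change that the enzymes share with the markers.

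**Figure D4:**
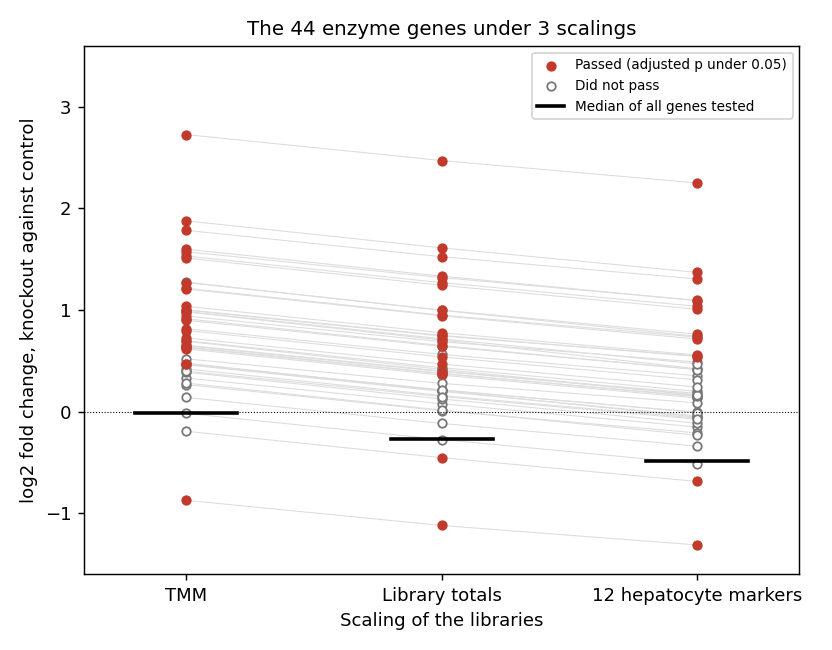
Log2 fold change, knockout against control, of the 44 enzyme genes (points joined by lines) with libraries scaled by TMM, by library totals and by 12 hepatocyte markers, filled where the gene passed. The points shift down together with the median of all genes (bars at −0.01, −0.26 and −0.49), and 28, 23 and 14 of them passed.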

How the data were processed

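Poly-A RNA from 6 whole livers was sequenced, per the labels' protocols. The authors deposited raw read counts per Ensembl gene, 1 column per mouse. The submitters' processing notes name HISAT2 2.0.5, StringTie 1.3.3b and featureCounts 1.5.0-p3 beside the build GRCm38.p6, but give no roles. Whether reads were counted by strand and how multi-mapped reads were treated is not given in the sources used here, so genes that share exon bases with another gene are uncertain.

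Identifiers were matched to GENCODE M21 (54495 of 54532 genes). Genes were filtered with filterByExpr, TMM-scaled and compared by edgeR 4.0.16 (quasi-likelihood test, R 4.3.3), with Benjamini-Hochberg adjustment over all 14758 genes. Adjusted p-values, SE (log2 fold change over the square root of F) and intervals come from this fit unless another tool is named. The 95% intervals are not adjusted for the number of genes, so one can lie above 0 where the adjusted p misses 0.05. Within each group the livers differed beyond sampling noise (chi-square per degree of freedom at least 24.5). Each column is taken to be 1 mouse from the labels, and p-values measure the spread between these mice.

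Alternatives were DESeq2 1.42.0, limma-voom (limma 3.58.1), relative log expression (RLE) factors, library totals, no filter, at least 50 counts in 3 libraries, leaving out the 20 most abundant genes, the mouse number as a block, leaving out each liver and, added after seeing the data, scaling to 12 hepatocyte markers. On counts simulated for this comparison (5 draws, 14432 to 14488 genes) the test recovered 6.87% of genes changed 1.5-fold, 56.1% changed 2-fold and 86.7% changed 4-fold, with 5.87% of its calls false. Far fewer genes were changed in each draw than the 3684 that passed in the data. The adjusted p threshold is then harder to reach, so these recovered shares do not carry over to the data. The members and lists were chosen with earlier results of these data known. Values per liver are given for members that passed and for 16 entry enzymes whatever their call, means for the rest, and from each other list up to 4 genes that passed by smallest p; some items chosen by these rules are not reported here. Promoter windows were matched by symbol for 36 members, and Ido2, Kynu, Sds, Sdsl, Mat1a, Cth, Dbt and Gpt are named only. Plots used matplotlib 3.10.9 (Python 3.11.15).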

Additional observations from a re-analysis of the deposited data

How the results depend on the processing

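Of the 28 enzymes that passed, 12 passed under all 15 alternatives and 21 passed whichever liver was left out. The number of enzymes that changed ran from 21 to 33 with 1 liver left out (21 to 32 higher and 0 to 1 lower), and over all genes from 2275 to 3413. It was 29 with DESeq2 and 28 with limma-voom, RLE factors or at least 50 counts in 3 libraries. With library totals 904 genes of all tested rose and 3698 fell (1751 and 1933 with TMM), 2 enzymes fell, and the median of the enzymes was 0.45. With hepatocyte marker scaling, chosen after seeing the data, 14 enzymes changed, 12 higher and 2 lower, the median was 0.22, and 515 genes of all tested rose and 4793 fell. That scaling turned the log2 values of Sds (−0.074), Gldc (−0.11), Gcsh (−0.34), Cbs (−0.23), Cth (−0.0064), Bckdha (−0.15), Bckdhb (−0.21), Dbt (−0.054), Ivd (−0.041), Pccb (−0.0081) and Gpt (−0.063); library totals turned that of Gcsh (−0.12). Tat turned without knockout liver 3 (0.15), control liver 1 (0.027) or control liver 3 (0.079).

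Among the other lists, hepatocyte marker scaling gave 2 aromatic, 0 branched-chain and 6 regulator genes instead of 6, 7 and 10. It gave 4 sulfur, 5 one-carbon, 5 nitrogen and 6 transporter genes instead of 4, 7, 7 and 9. These counts take in either direction and genes that passed only with that scaling. Library totals gave 2 branched-chain and 2 sulfur genes instead of 7 and 4. With 1 liver left out, the lists gave 4 to 6 aromatic, 4 to 8 branched-chain, 1 to 4 sulfur, 5 to 6 one-carbon, 5 to 7 nitrogen, 5 to 9 transporter and 7 to 9 regulator genes. The cause of these differences was not tested. Mat1a has no value without the 20 most abundant genes, since it is one of them.

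The sample titles number the mice 1 to 3 in each group, while the column names carry other numbers, which are not the same set in both groups. Livers with the same title number did not deviate together (correlations −0.027, 0.044 and −0.019), so the title numbers were not taken as pairs. The mouse number used as a block is also that of the titles. With the mouse number as a block, 24 enzymes changed (23 higher, 1 lower), and 3086 of all genes; Mat1a, Ahcy, Cth and Agxt did not pass (adjusted p = 0.0691, 0.0585, 0.062 and 0.0728). With 3 livers per group a missed threshold does not mean that there was no difference. For a gene that did not pass, its 95% interval shows which differences remain possible.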

Other observations

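The enzymes differed in how evenly they were expressed among livers of the same group. In the knockouts the coefficient of variation over 3 livers was largest for Aass (60.9%), Bhmt (57.4%), Amt (50.7%), Dbt (42.7%) and Prodh (40%), and in all of these knockout liver 2 was highest. It was smallest for Prodh2 (1.57%), Pccb (1.81%), Bckdha (4.17%), Mccc1 (4.75%) and Inmt (5.16%). In the controls the same measure was 20.5% for Aass, 31.9% for Bhmt, 22.2% for Amt, 9.98% for Dbt and 30.7% for Prodh, and for the even genes 15.8% for Prodh2, 5.09% for Pccb, 15.8% for Bckdha, 4.61% for Mccc1 and 5.68% for Inmt. The genes were named after their values were seen, and with 3 livers a group the difference in spread was not tested.

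Some of the enzyme genes lie close together in the genome. Hal and Amdhd1, neighbours on chromosome 10 and both of the histidine route, both rose (log2 1.53 and 0.90). Bhmt and Dmgdh, close together on chromosome 13, stood at log2 1.27 (not passed) and 0.91 (passed). Sds and Sdsl, neighbours on chromosome 5, stood at 0.40 and −0.19, and neither passed. These pairs are given as values only.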
